A study of Mus musculus with 81 samples.

Results

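The Hox genes described here are the 39 genes of the HoxA, HoxB, HoxC and HoxD clusters in the expression table, of 22869 gene symbols in all. They were chosen by name, as every symbol that is Hoxa, Hoxb, Hoxc or Hoxd followed by a number alone, and a gene with several transcript rows was represented by the row of highest mean over the cells. The 39 genes have 41 rows, because Hoxb3 and Hoxa10 have more than 1. The cells were single cells from pancreata of wild-type CD1 mice at embryonic day 13.5, dissociated with trypsin and captured one by one on a microfluidic device. The 81 cells form 1 group, no transgene, treatment or sort is given for them, and no animal or litter is named. They were therefore treated as 1 sample, shares of cells carry exact Clopper-Pearson 95% intervals that cover counting error only, and no test between kinds of cell was made. Expression is in RPKM, read counts scaled by transcript length and by the library's mapped reads.

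Hox genes encode homeodomain transcription factors that give cells along the head-to-tail axis their regional identity. In each cluster the genes lie side by side in the order in which they are used along the body, so that genes of low number, at the 3' end of the cluster, are expressed from the hindbrain and neck backwards and genes of high number only toward the tail, the limbs and the urogenital region. Genes of the same number in different clusters are paralogs, which arose by duplication of a single ancestral cluster and have overlapping functions. The developing gut and the mesenchyme around it carry regional Hox patterns as well, and the pancreas buds from the foregut. Hox proteins bind DNA together with partner homeodomain proteins of the Pbx, Meis and Pknox families. Retinoic acid and Cdx factors are known to switch the clusters on, and Polycomb and trithorax complexes hold them silent or active.

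Start-site sequences are shown for 4 of the genes, picked with their detection known, because they set a widely detected gene beside its undetected neighbour (Hoxa5 and Hoxa6), and a central gene beside the gene at the far end of a cluster (Hoxb4 and Hoxa13). Each runs 5' to 3' over the 250 bases before the annotated start, from RefSeq on GRCm38.p6, with every CG dinucleotide in capitals. Hoxa5 lies at chr6:52204588-52204837, minus strand, Hoxa6 at chr6:52208673-52208922, minus strand, Hoxb4 at chr11:96318017-96318266, plus strand and Hoxa13 at chr6:52260881-52261130, minus strand. These coordinates belong to that build and not to the mm9 positions of the expression table.
Hoxa5: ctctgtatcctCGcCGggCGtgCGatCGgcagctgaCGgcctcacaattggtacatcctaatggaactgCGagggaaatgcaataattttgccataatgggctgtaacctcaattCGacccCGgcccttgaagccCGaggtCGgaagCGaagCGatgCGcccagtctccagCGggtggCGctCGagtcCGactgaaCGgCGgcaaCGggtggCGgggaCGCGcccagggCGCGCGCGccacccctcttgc
Hoxa6: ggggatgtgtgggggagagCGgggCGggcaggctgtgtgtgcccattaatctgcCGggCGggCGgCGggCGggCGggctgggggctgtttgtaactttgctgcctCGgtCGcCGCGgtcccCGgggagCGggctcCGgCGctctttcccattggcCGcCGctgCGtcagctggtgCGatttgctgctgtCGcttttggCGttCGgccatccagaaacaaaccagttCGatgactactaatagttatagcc
Hoxb4: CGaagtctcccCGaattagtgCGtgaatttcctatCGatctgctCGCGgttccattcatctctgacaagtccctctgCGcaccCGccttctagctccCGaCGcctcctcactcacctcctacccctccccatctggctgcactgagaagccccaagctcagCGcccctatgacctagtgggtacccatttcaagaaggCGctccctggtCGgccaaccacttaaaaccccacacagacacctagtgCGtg
Hoxa13: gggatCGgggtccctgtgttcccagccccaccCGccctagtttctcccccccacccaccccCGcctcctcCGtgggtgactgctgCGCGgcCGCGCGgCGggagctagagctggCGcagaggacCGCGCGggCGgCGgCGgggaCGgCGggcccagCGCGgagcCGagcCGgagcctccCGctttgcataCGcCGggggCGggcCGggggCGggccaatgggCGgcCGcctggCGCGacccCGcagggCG

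The Hoxa5 window holds 28 CG dinucleotides and the gene reached 1 RPKM in 38 cells, while the Hoxa6 window holds 24 and the gene was listed at 0 in every cell. The Hoxb4 window holds 14 for a gene in 28 cells, and the Hoxa13 window holds 35 for a gene listed at 0. RefSeq start windows matched 22 of the 39 genes (24 windows). Their median was 12.5 CG dinucleotides, from 2 to 35, against 6 over all 32851 windows. The 11 windows of genes at 1 RPKM in any cell had a median of 7 (3 to 28). The 11 windows of genes listed at 0 had a median of 20 (2 to 35), so the ranges overlap almost completely. Of the genes at 1 RPKM in at least 10% of cells, only Hoxa3, Hoxa5 and Hoxb4 have a window, with 18, 28 and 14. The other detected genes, each in few cells, held 3 to 8, apart from a Hoxa10 window with 20. Most windows of genes listed at 0 belong to genes of high number. The medians therefore do not set widely expressed Hox genes against silent ones. Among the 24 windows, searched on both strands, TATAAA (the TATA box) was in 4 and in 12.4% of all windows. The half-site of retinoic acid receptors, AGGTCA, was in 6 windows and in 14.02% of all. TGATNNAT, a site form of Pbx-Hox pairs, was in 4 windows and in 7.68% of all. Such matches are a description of the letters and say nothing of binding.

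Depth was estimated from the RPKM steps that 1 read makes. The estimate was 1.65M to 5.35M reads in 77 cells, with a median of 3.56M over all 81. The cells C3, C61, C94 and C43 were shallow (estimates of 19.8K, 71.9K, 198.2K and 415.6K), and 10 of the 261 Hox values of at least 1 RPKM came from them, some resting on about 1 read (Hoxa3 and Hoxb3 in C3, Hoxb3 in C94, Hoxb6 in C43). In a cell of median depth, 1 RPKM of Hoxa5 is worth 6.68 reads. Cells were clustered without the Hox genes and named from marker genes. This gave 67 stromal-like cells with mesenchyme markers, a cluster of 7 epithelial-like cells, 2 endocrine-like cells, 4 leukocyte-like cells and the unnamed cell C3. The epithelial-like cluster is mixed: C43, C47, C82 and C95 carry Epcam and Cdh1 (Epcam 47.8 to 276.3 RPKM), C22 and C72 carry the endothelial genes Pecam1 (45.9 and 108.1 RPKM) and Cdh5 (76.5 and 54.9 RPKM), and C29 carries 5 of 14 mesenchyme markers at 10 RPKM but also mesothelial Upk1b (17.7 RPKM) and Lrrn4 (12.1 RPKM) and epithelial Epcam (13.3 RPKM) and Krt18 (15.2 RPKM).

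Hox transcripts were present in nearly every cell, from the 3' and middle part of the clusters and almost entirely from HoxA and HoxB. Of the 39 genes, 21 were above 0 in at least 1 cell, 19 reached 1 RPKM in at least 1 cell, and 18 were listed at 0 in all 81. The 1 RPKM level was reached in at least 10% of cells by 8 Hox genes (Hoxa3, Hoxa5, Hoxb2, Hoxb3, Hoxb4, Hoxb5, Hoxb6 and Hoxb7), where 40.4% of all genes in the table did so. The share of all genes listed at 0 in every cell was 32.4%. A Hox gene listed at 0 in all 81 cells could still reach the level in up to 3.70% of such cells (a limit of 3 counts of 81), or 4.45% by the exact interval.

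**Figure D1:**
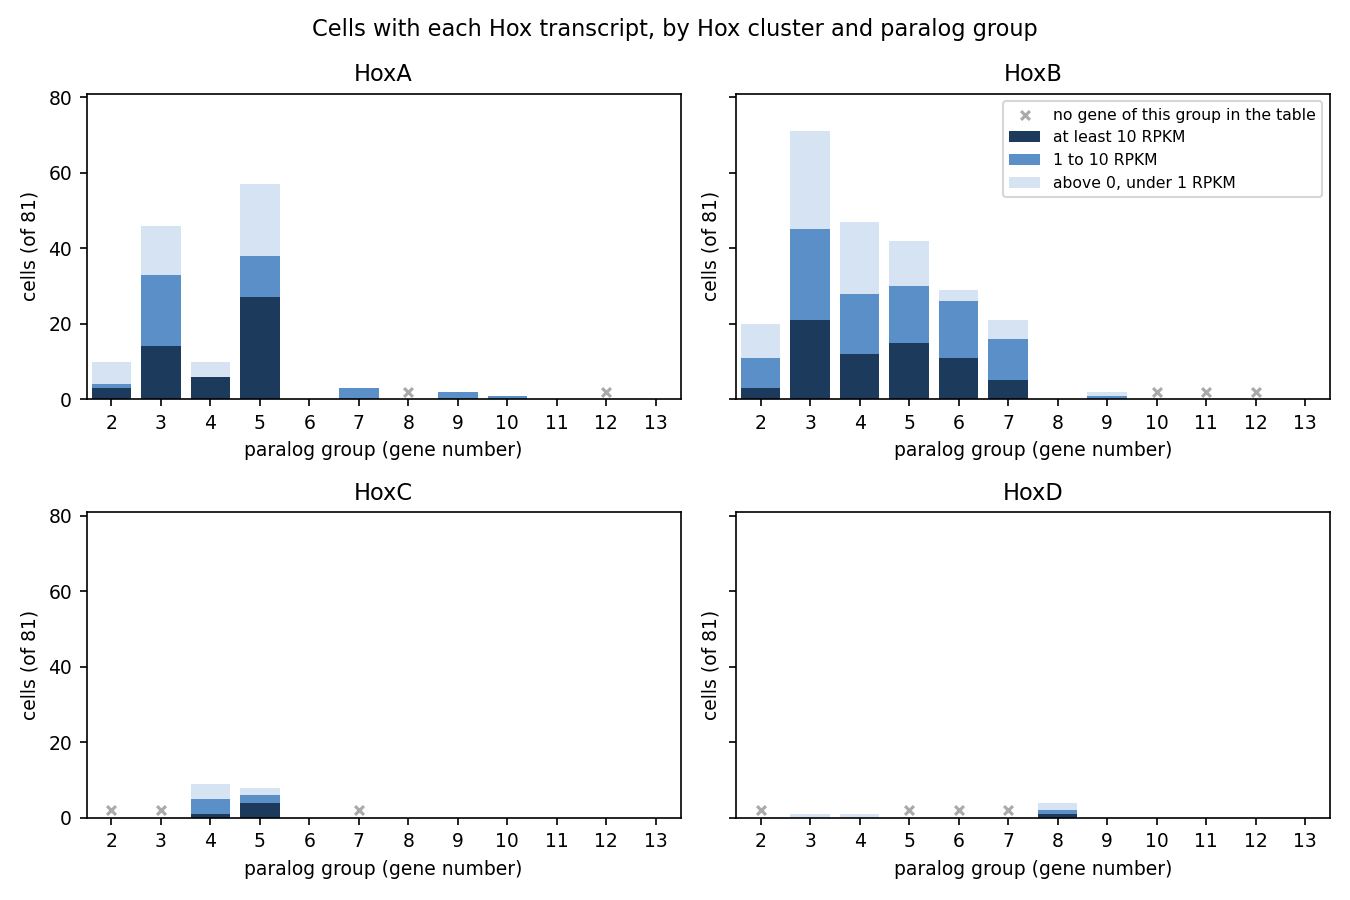
Number of the 81 cells (vertical axis) with each Hox gene, by paralog group from 2 to 13 (horizontal axis) in the 4 Hox clusters, with bar colours for values of at least 10 RPKM, 1 to 10 RPKM and above 0 but under 1 RPKM, and crosses where the table has no gene of that group. HoxA and HoxB bars lie mostly in groups 2 to 7, HoxC shows only groups 4 and 5, and groups 11 to 13 are empty in every cluster.

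HoxB was the cluster most cells carried. At least 1 HoxB gene reached 1 RPKM in 77 of 81 cells (95.1%, 95% interval 87.8% to 98.6%), and at least 1 HoxA gene in 61 (75.3%, 64.5% to 84.2%). HoxC genes did so in 8 cells (9.88%, 4.36% to 18.5%) and HoxD genes in 2 (2.47%, 0.300% to 8.64%). Both HoxA and HoxB were present in 58 cells, HoxB without HoxA in 19 and HoxA without HoxB in 3. HoxA held the larger part of the summed Hox RPKM, 54.7% against 40.5% for HoxB, with 3.74% from HoxC and 1.06% from HoxD. The pooled share of HoxA came from few cells of high level, up to 366.4 RPKM: the median summed level per cell was 10.2 RPKM for HoxA and 20.2 RPKM for HoxB.

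By paralog group, detection peaked at groups 3 and 5. Any member of group 3 reached 1 RPKM in 62 cells (76.5%, 65.8% to 85.2%) and any member of group 5 in 56 (69.1%, 57.9% to 78.9%). Group 4 lay between them in position and was lower, at 35 cells (43.2%, 32.2% to 54.7%), below both intervals. Group 6 was found in 26 cells, group 7 in 17 and group 2 in 15. Group 8 was found in 2 cells, group 9 in 3, group 10 in 1, and groups 11, 12 and 13 in none. Taking groups 1 to 3 as anterior, 4 to 8 as central and 9 to 13 as posterior, anterior genes were present in 67 cells, central genes in 71 and posterior genes in 4, and posterior genes held 0.180% of the summed Hox RPKM.

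Among the anterior genes, Hoxa2 gave few cells with high values. Hoxa2, which patterns hindbrain segments and branchial arch skeleton, measured 197.3 RPKM in C69, 88.4 RPKM in C95, 36.6 RPKM in C28 and 3.63 RPKM in C79. C95 is a cell with epithelial markers, and the others are stromal-like. Hoxb1, which specifies a hindbrain segment, reached the level in C72 alone, at 6.06 RPKM, and Hoxd1 was listed at 0 in every cell. Hoxb2, a hindbrain gene regulated by Hoxb1, was spread more widely: 11 cells reached 1 RPKM, from 1.16 to 13.4 RPKM with a median of 4.87. The highest Hoxb2 value was in the leukocyte-like cell C54.

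Group 3 genes are known for patterning the neck, pharyngeal organs and cervical vertebrae. Hoxb3 was the most widely detected Hox gene, in 45 cells (55.6%, 44.1% to 66.6%), with detected values from 1.33 to 67.3 RPKM and a median of 8.43. Its highest value was in the leukocyte-like cell C2, and 26 more cells had values above 0 but under 1 RPKM. Hoxa3, needed for thymus and parathyroid formation, reached 1 RPKM in 33 cells (40.7%, 29.9% to 52.2%), from 1.21 to 59.7 RPKM with a median of 9.36. On these rows the intervals of the 2 paralogs overlap. With the 2 transcript rows of Hoxb3 summed, it reached 1 RPKM in 66.7% of cells, just above its interval here. Hoxa3 stayed at 40.7%, and no interval was computed for the summed rows. Hoxd3, the third paralog, was above 0 in 1 cell only, at 0.079 RPKM. The Hoxb3 transcript is one where overlapping genes matter: 68.7% of its 50-base windows also occur in the antisense gene Hoxb3os, as do 57.3% of those of Hoxb2. For Hoxa3 26.3% of windows and for Hoxa7 27.0% occur in other genes, the antisense gene Hoxaas3 among them. The counting is not stated to use strand, so sense and antisense reads cannot be told apart for these genes.

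**Figure D2:**
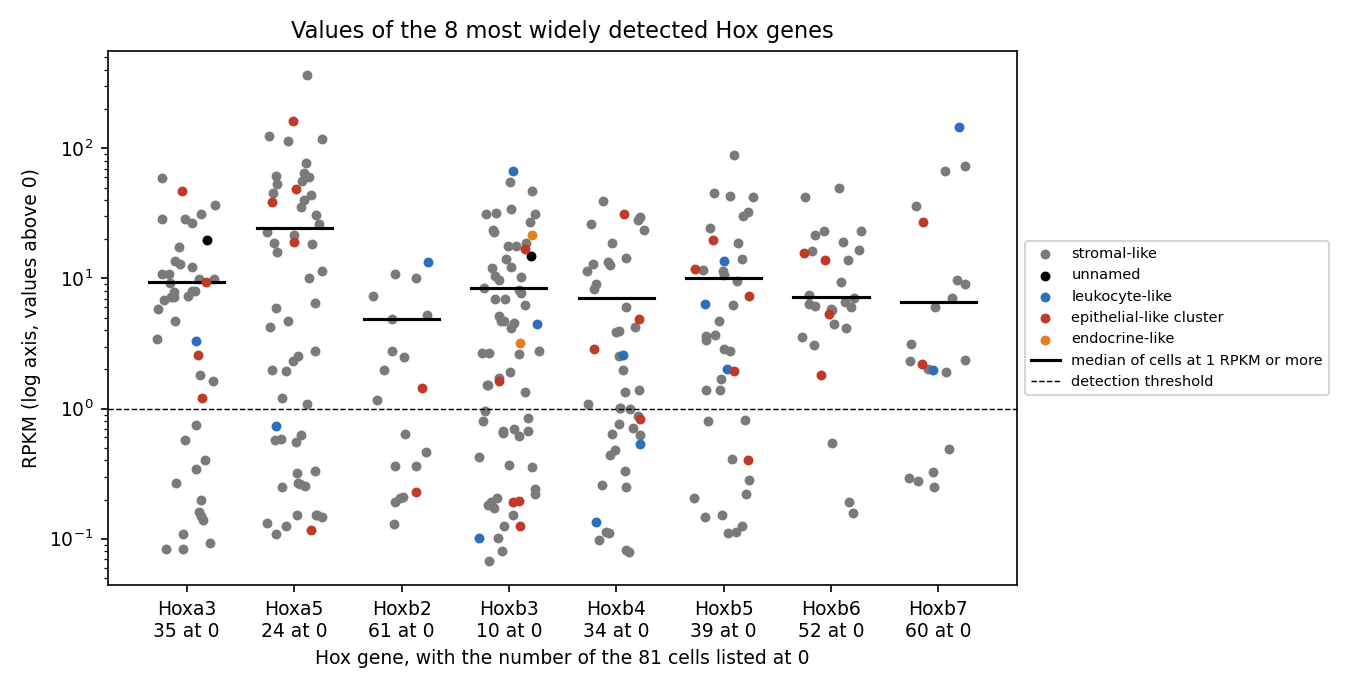
RPKM on a log axis of the 8 Hox genes found at 1 RPKM in at least 10% of cells (horizontal axis, with the number of cells listed at 0), where each point is a cell coloured by class, the bar is the median of cells at 1 RPKM or more and the dashed line is 1 RPKM. Hoxa5 has the highest median and the highest single value, and leukocyte-like cells hold the highest value of Hoxb2, Hoxb3 and Hoxb7.

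The central genes held 68.6% of the summed Hox RPKM, and Hoxa5 stood out in level. Hoxa5, which has known roles in lung and foregut mesenchyme, reached 1 RPKM in 38 cells (46.9%, 35.7% to 58.3%) and 10 RPKM in 27. Its detected values ran from 1.08 to 366.2 RPKM with a median of 24.6, higher than the medians of the other widely detected genes, which lay between 4.87 and 10.1 RPKM on the same per-length scale. The highest Hoxa5 values were 366.2 RPKM in C83, 161.1 RPKM in C47 (a cell with epithelial markers) and 123.5 RPKM in C67. None of the 50-base windows of Hoxa5 occurs in another gene. Its paralog Hoxb5 reached 1 RPKM in 30 cells (37.04%, 26.6% to 48.5%), from 1.38 to 89.4 RPKM with a median of 10.1. Hoxc5 reached it in 6 cells, from 5.85 to 81.7 RPKM, among them C13 (81.7 RPKM), C17 (32.2 RPKM) and C63 (20.7 RPKM).

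Group 4 genes mark the hindbrain and cervical levels, and here 1 member was common. Hoxb4, also known for expanding blood stem cells, reached 1 RPKM in 28 cells (34.6%, 24.3% to 45.96%), from 1.01 to 39.6 RPKM with a median of 7.13. Hoxa4 reached it in 6 cells, each at 16.1 RPKM or more, with 142.8 RPKM in C41 and 39.8 RPKM in C72. Hoxc4 reached it in 5 cells: it measured 34.2 RPKM in C13, 5.08 RPKM in C36, 5.01 RPKM in C29, 4.92 RPKM in C17 and 1.61 RPKM in C30. C13, C17 and C29 had both Hoxc4 and its neighbour Hoxc5 at 1 RPKM, and C13 was highest for each, as it was for Hoxb5. C13 was clustered with the stromal-like cells but had 1 of 14 mesenchyme markers at 10 RPKM (summed 38.9 RPKM). It also had 2 of 11 epithelial markers (summed 184.3 RPKM) and 1 of 4 mesothelial markers (summed 322.2 RPKM) at that level. Hoxd4 was above 0 in 1 cell only, at 0.428 RPKM.

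Groups 6 and 7 came almost wholly from HoxB. Hoxb6 reached 1 RPKM in 26 cells (32.1%, 22.2% to 43.4%), from 1.81 to 49.9 RPKM with a median of 7.25, while Hoxa6 and Hoxc6 were listed at 0 in every cell. Hoxa6 lies between Hoxa5 and Hoxa7 on chromosome 6 (mm9 start 52156364, end 52158623, minus strand). Its transcript is short, at 874 bases, yet 1 RPKM of it is still worth 3.11 reads in a cell of median depth. Hoxb7 reached 1 RPKM in 16 cells (19.8%, 11.7% to 30.1%), with a median of 6.56 RPKM. Its highest values were 145.8 RPKM in the leukocyte-like cell C2, 72.7 RPKM in C18 and 67.6 RPKM in C84, and the other cells ranged from 1.90 to 35.8 RPKM. Hoxa7 measured 7.99 RPKM in C7, 3.02 RPKM in C12 and 2.64 RPKM in C8 and was listed at 0 in the other cells.

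Group 8 was represented by Hoxd8 alone, in the pair of cells with endothelial markers. Hoxd8 measured 49.98 RPKM in C22 and 8.58 RPKM in C72, about 503.3 and 121.0 reads. Its other values above 0 were 0.202 RPKM in C19 and 0.161 RPKM in C42, about 1.81 and 1.83 reads. C22 and C72 hold 8 and 10 of the 13 endothelial markers at 10 RPKM. No stromal-like cell reached 1 RPKM of Hoxd8 (0 of 67). The link between Hoxd8 and these cells was noticed after the values were seen, and it rests on 2 cells. Hoxb8 and Hoxc8 were listed at 0 in every cell.

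The posterior genes, numbers 9 to 13, are those of trunk end, limb and urogenital tract, and 13 of the 16 were listed at 0 in all cells. The exceptions were single low values. Hoxa9 measured 2.67 RPKM in C18 and 1.25 RPKM in C74, about 30.7 and 17.01 reads. Hoxa10 measured 4.69 RPKM in C63, about 24.98 reads. Hoxb9 measured 1.01 RPKM in C17, about 8.53 reads, and 0.487 RPKM in C22. No posterior gene reached 10 RPKM in any cell. Hoxa11, Hoxa13, Hoxb13, the HoxC genes from Hoxc9 to Hoxc13 and the HoxD genes from Hoxd9 to Hoxd13 were listed at 0 throughout.

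**Figure D3:**
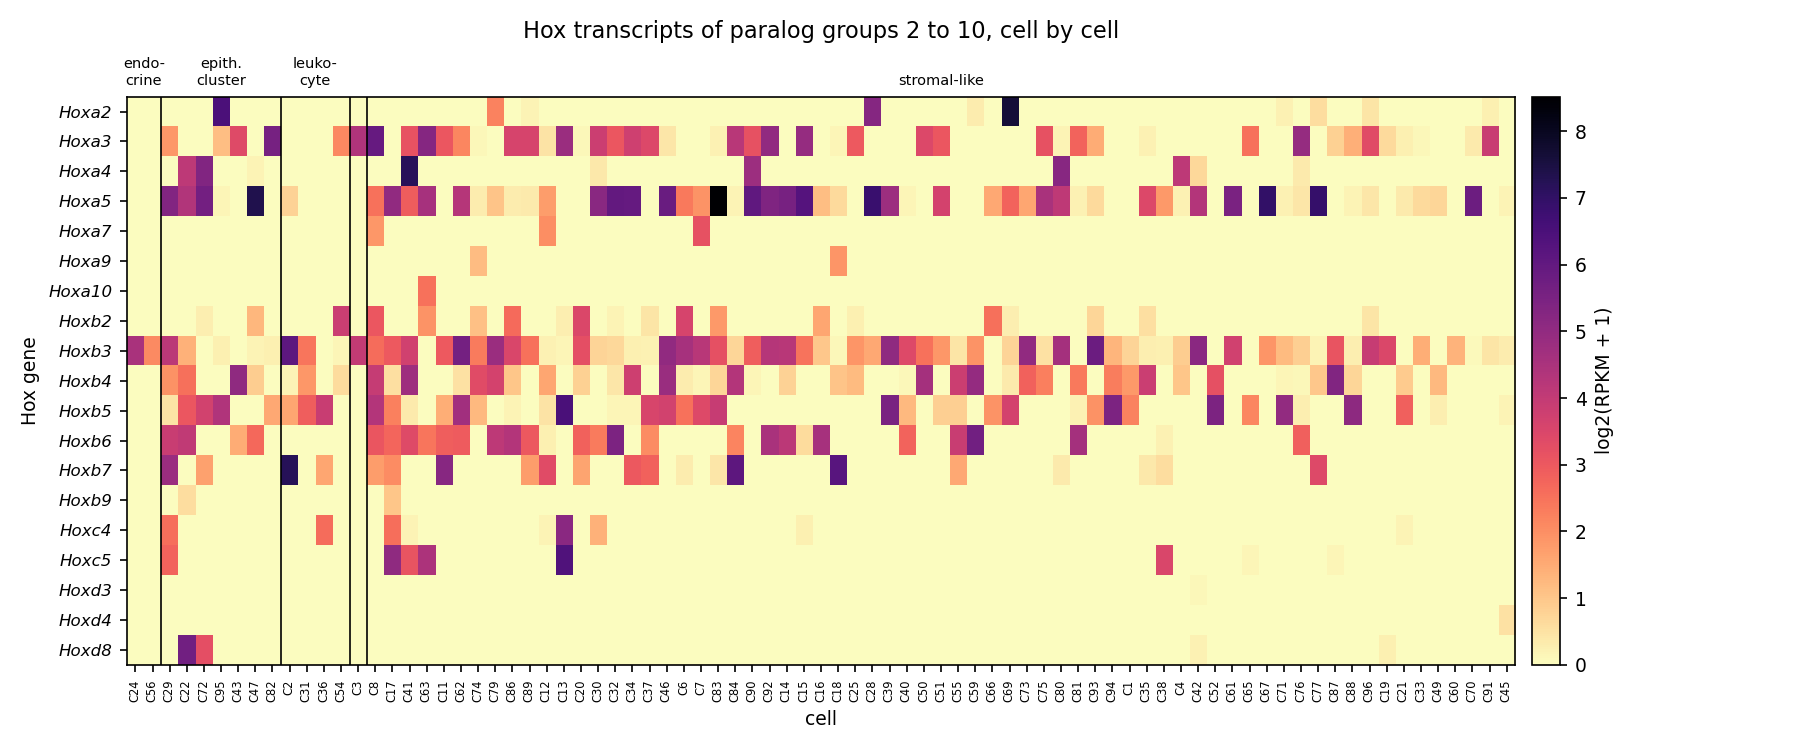
Level as log2(RPKM + 1), by colour, of the 19 Hox genes of groups 2 to 10 above 0 in any cell (rows) in each of the 81 cells (columns, ordered by class and then by the number of Hox genes at 1 RPKM; the column between leukocyte and stromal-like is the unnamed cell C3). Hoxa3, Hoxa5 and Hoxb3 to Hoxb6 recur across cells in differing combinations, and the HoxC, HoxD and posterior rows hold a few cells each.

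Single cells held small and differing sets of Hox genes. The median cell had 3 Hox genes at 1 RPKM, with a range of 0 to 9. A total of 25 cells had 3 genes, 18 had 2, 15 had 4 and 9 had 1. The cell with 9 was C8, which carried Hoxa3 (59.7 RPKM), Hoxb5 (18.8 RPKM), Hoxb4 (14.3 RPKM) and 6 others. The summed Hox level had a median of 48.1 RPKM per cell, from 0.965 to 392.2. Over the 81 cells there were 65 distinct sets, and 54 cells had a set that no other cell had. In 61 cells 1 gene held at least 50% of the cell's Hox RPKM. Over all 81 cells the highest Hox gene was most often Hoxa5 (18 cells), Hoxb3 (14), Hoxb5 (11) or Hoxa3 (8). The gene of highest number at 1 RPKM was in group 5 in 31 cells, group 6 in 15, group 7 in 14, group 3 in 9 and group 4 in 5. A transcript that is absent from a cell and one that was missed in its library cannot be told apart in these values.

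**Figure D4:**
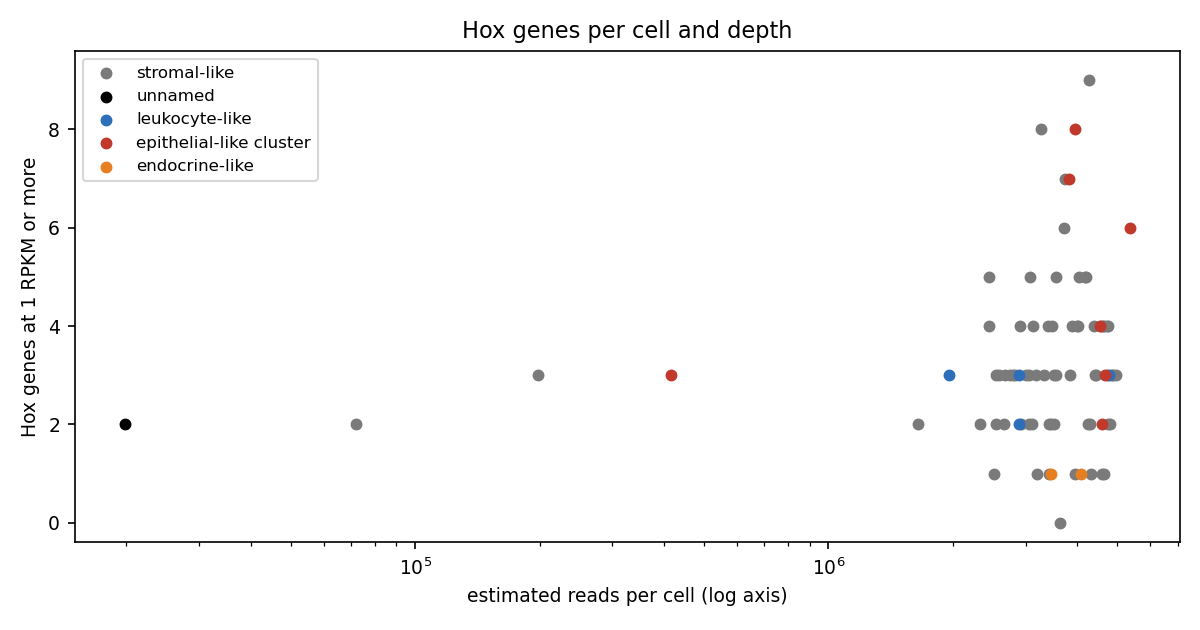
Number of Hox genes at 1 RPKM or more (vertical axis) against estimated reads (horizontal log axis), each point a cell coloured by class. The number of Hox genes varies from 0 to 9 among cells of similar depth, and the 4 shallow cells have 2 or 3.

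The number of Hox genes followed depth only weakly. Over the 81 cells it had a Pearson correlation of 0.16 with estimated reads and 0.27 with the number of genes of any kind at 1 RPKM, both given as descriptions of libraries that share a run. Without the 4 shallow cells the median stayed at 3 and the range at 0 to 9. One cell, C45, had no Hox gene at 1 RPKM. It had an estimated 3.64M reads and carried the neural crest and glia gene Sox10 (31.9 RPKM). The cell was singled out after its values were seen, and its only Hox values were under 1 RPKM, the largest being Hoxd4 at 0.428 RPKM, about 3.99 reads.

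Within HoxB, a cell with one gene did not as a rule have its neighbour more often than other cells. The 5 neighbouring pairs among the widely detected genes run from Hoxb2 and Hoxb3 to Hoxb6 and Hoxb7, and their deposited transcript rows do not overlap. Only in 1 of the 5 was the second gene more frequent in cells with the first than in cells without it: Hoxb7 was present in 34.6% of the 26 cells with Hoxb6 and in 12.7% of the 55 cells without it. In the other 4 pairs the share was lower by 1.17 to 13.9 percentage points. Hoxb6 was present in 23.3% of cells with Hoxb5 and in 37.3% of cells without it. The paralogs were no closer. Hoxb3 was present in 48.5% of the 33 cells with Hoxa3 and 60.4% of the 48 without, and Hoxb5 in 31.6% of the 38 cells with Hoxa5 and 41.9% of the 43 without. Of the 11 pairs in the same Hox cluster that are not neighbours, 7 had the second gene more often with the first, with a median difference of 2.78 points. The largest was for Hoxb2 and Hoxb6: Hoxb6 was present in 54.5% of the 11 cells with Hoxb2 and 28.6% of the 70 without. No interval was computed for the difference of any pair. Over all 28 pairs of the 8 genes, correlations of log2(RPKM + 1) over cells lay between -0.19 and 0.23. The highest was for Hoxa3 and Hoxb6, and Hoxb6 was present in 48.5% of cells with Hoxa3 and 20.8% of cells without it.

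Hox genes were found in every class of cell. The median was 3 Hox genes per cell in the 67 stromal-like cells (0 to 9), 3 in the 9 epithelial-like and endocrine-like cells (1 to 8) and 3 in the 4 leukocyte-like cells (2 to 3). The endocrine-like cells C24 and C56, which carry Gcg at 48647 and 22613 RPKM, had Hoxb3 alone, at 21.6 and 3.21 RPKM. The cells with epithelial markers differed from each other: C47 was led by Hoxa5 (161.1 RPKM), C82 by Hoxa3 (47.02 RPKM), C95 by Hoxa2 (88.4 RPKM) and the shallow cell C43 by Hoxb4 (31.6 RPKM). C91, clustered with the stromal-like cells, carries Epcam at 27.6 RPKM and had Hoxa3 alone, at 13.6 RPKM, a cell singled out after its values were seen. C29, the cell of mixed markers in their cluster, had 8 Hox genes, led by Hoxa5 (39.005 RPKM) and Hoxb7 (27.3 RPKM). The leukocyte-like cells C2, C31, C36 and C54 were led by Hoxb7 (145.8 RPKM), Hoxb5 (6.39 RPKM), Hoxb5 (13.7 RPKM) and Hoxb2 (13.4 RPKM). They hold 12 to 14 of the 14 leukocyte markers at 10 RPKM and also 2 to 4 of the 14 mesenchyme markers, with a median summed mesenchyme RPKM of 149.1 (47.1 to 302.9), against 446.9 (38.9 to 1250.0) in the stromal-like cells. C2, with the highest Hoxb3 and Hoxb7, had Col1a2 at 174.3, Col3a1 at 57.7, Tcf21 at 70.7 and the stomach mesenchyme gene Barx1 at 124.1 RPKM, and C36 had Col3a1 at 141.8 and Pdgfrb at 24.1 RPKM. Twist1, Prrx1, Dcn, Lum, Postn, Meox1 and Meox2 were under 1 RPKM in all 4. The 9 epithelial-like and endocrine-like cells held 2 to 5 of the 14 mesenchyme markers at 10 RPKM, with a median summed RPKM of 164.5 (68.3 to 421.7). Among them, C56 had Tcf21 at 156.2 RPKM and C43 had Barx1 at 269.4 RPKM, while Lum, Postn and Meox1 were under 1 RPKM in all 9. The part of stromal RNA in the Hox values of the leukocyte-like, epithelial-like and endocrine-like cells was not tested.

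On the mean log2(RPKM + 1) scale, no Hox gene differed by 1 unit or more between the stromal-like and the epithelial-like plus endocrine-like cells. Of the 15 Hox genes above 0 in at least 3 cells, 0 were higher by that much in the stromal-like cells, against 2.33% of the 13237 genes compared, and 0 in the others, against 16.7%. The median difference, stromal-like minus other, was -0.14 over the Hox genes and -0.20 over all genes. The difference for Hoxb3 was 0.60, with means of 2.02 and 1.42, and for Hoxa3 it was 0.16. For Hoxd8 it was -0.99, from C22 and C72, and for Hoxa4 -0.73. For Hoxa5 it was -0.25. The signs depend on the mixed cluster: without C22, C29 and C72 the difference was 1.03 for Hoxa5, 0.31 for Hoxa4, 0.01 for Hoxd8 and -0.20 for Hoxa3. Hoxb3 was higher in the stromal-like cells under every alternative tried (0.41 to 1.14), and passed 1 unit with cells named one by one (1.10), without the endocrine-like cells (1.13) and with a pseudocount of 0.1 (1.14). One side has only 9 cells. Apart from Hoxd8, the differences named were smaller than the SD over cells of the reported comparison in either class. For Hoxa5 that SD was 2.50 in the stromal-like and 3.06 in the other cells. The Hoxd8 difference exceeded its SD in the stromal-like cells (0.04) but not in the other cells (2.06). An SD over cells is not an error of the difference, and no such error was computed.

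Within the stromal-like cells, Hox detection was compared between cells with and without regional mesenchyme genes. The comparison was added after values had been seen, over 6 marker genes and the 8 widely detected Hox genes, 48 pairs in all, and 3 pairs had an interval that leaves out 0. Tlx1, a homeobox gene of spleen mesenchyme, reached 1 RPKM in 30 of the 67 cells, and Barx1, a homeobox gene of stomach mesenchyme, in 30. Hoxa3 was present in 5 of the 30 cells with Tlx1 (16.7%) and in 22 of the 37 without it (59.5%), a difference of -42.8 percentage points (interval -62.0 to -17.7). Hoxb6 was present in 5 of the 30 (16.7%) and in 17 of the 37 (45.9%), a difference of -29.3 points (-49.7 to -4.85). In the other direction, Hoxa3 was present in 18 of the 30 cells with Barx1 and in 9 of the 37 without it (24.3%), a difference of 35.7 points (9.97 to 57.1). Each interval covers counting error for a single pair and was not adjusted for the 48 pairs. Among 48 such intervals some can leave out 0 by counting error alone. The same split was not made over all genes, so the 3 pairs have no background to be set against.

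**Figure D5:**
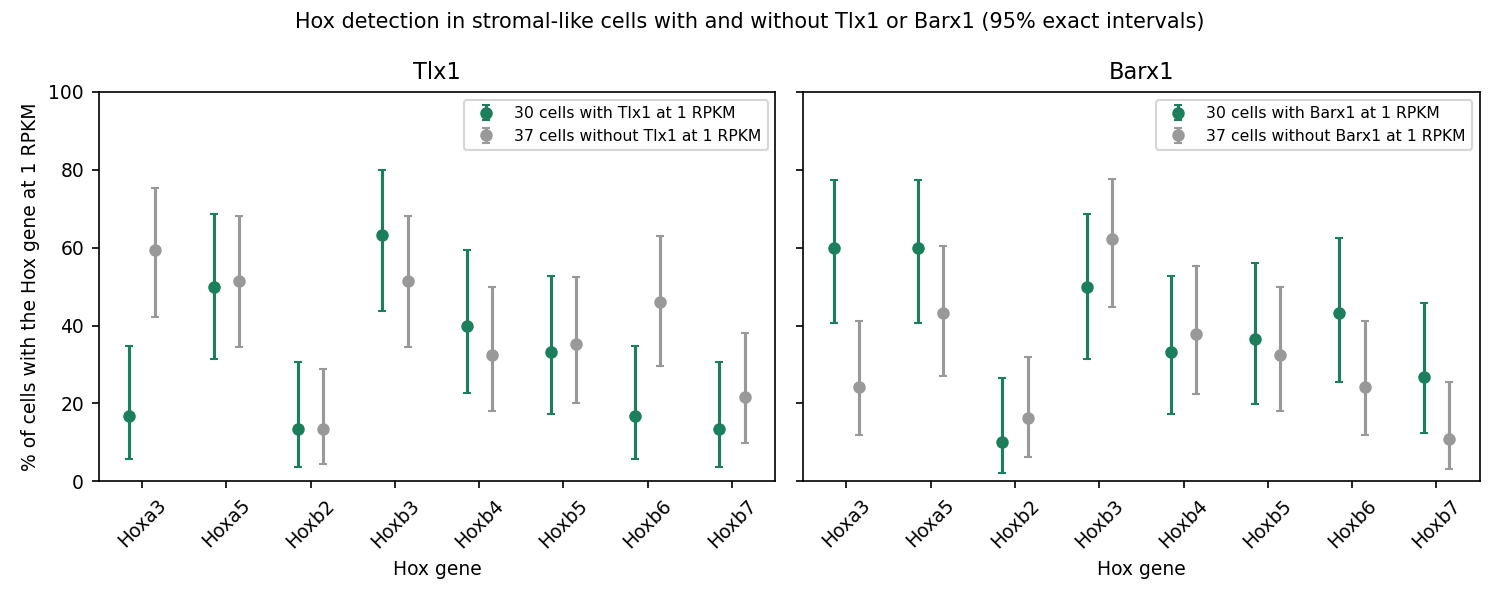
Percent of stromal-like cells with each of the 8 Hox genes at 1 RPKM (vertical axis), in cells with (green) and without (grey) Tlx1 on the left or Barx1 on the right, with exact 95% intervals. Hoxa3 stands at 16.7% with Tlx1 against 59.5% without it, with intervals that do not overlap, and is higher with Barx1 than the 24.3% without it; the intervals of the other 7 genes overlap in both panels.

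Split by both genes, Hoxa3 was present in 2 of 22 cells with Tlx1 alone, 15 of 22 with Barx1 alone, 3 of 8 with both and 7 of 15 with neither. The highest Hoxa3 value was 17.4 RPKM in the cells with Tlx1 and 59.7 RPKM in the others. At 10 RPKM of Hoxa3 there was 1 cell with Tlx1 against 11 of the others. Only 5 cells with Tlx1 had Hoxa3 at 1 RPKM, against 22 without, so these figures are not separate from the detection difference. Levels among the cells with Hoxa3 alone were not compared. Median depth was 3.46M reads in the cells with Tlx1 and 3.56M in those without, and both had a median of 3 Hox genes. Cells with Barx1 were deeper, at 3.72M against 3.20M, and had a median of 4 against 3 Hox genes. The part of depth in the Barx1 difference was not tested. With both genes taken at 10 RPKM, the Tlx1 difference was -19.9 points for Hoxa3 (-35.6 to 1.75) and -13.2 for Hoxb6 (-28.2 to 7.51), both intervals now including 0. The Barx1 difference for Hoxa3 was then 33.9 points (7.29 to 61.1). With any value above 0, the Tlx1 difference was -24.1 points for Hoxa3 (-46.02 to 1.94) and -36.8 for Hoxb6 (-58.5 to -10.8), and the Barx1 difference for Hoxa3 was 26.2 points (0.400 to 49.05).

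The partner proteins of Hox factors were far more widely present than the Hox genes themselves. Of 9 genes of the Pbx, Meis and Pknox families, 8 reached 1 RPKM in at least 10% of cells, as 40.4% of all genes did. Meis1 and Meis2 did so in 78 cells each, with medians of 80.9 and 41.7 RPKM over all cells, and Pknox1 in 46. Of 11 genes upstream of the clusters, 5 reached 1 RPKM in at least 10% of cells, a share near the 40.4% of all genes, and 4 did not reach it in any: Cdx1, Cdx2, Cdx4 and Cyp26c1. The retinoic acid receptor genes Rarg, Rarb and Rara did so in 32, 23 and 22 cells. Cyp26b1, which breaks down retinoic acid, did so in 26 cells, all stromal-like. The 9 chromatin regulators all passed 10% of cells (40.4% of all genes), led by the Polycomb genes Ezh2 (74 cells) and Suz12 (64) and the trithorax gene Kmt2a (60, listed under its older symbol Mll1).

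Of 13 further genes listed for the clusters, long noncoding RNAs and the neighbouring homeobox genes Evx1 and Evx2, 5 were in the table, and 2 noncoding RNAs of HoxA reached 1 RPKM. Mira, a noncoding RNA next to Hoxa7, was present in 6 cells, at 253.4 RPKM in C8, 223.4 RPKM in C7, 17.3 RPKM in C21, 14.1 RPKM in C12, 4.75 RPKM in C37 and 1.42 RPKM in C62. The 3 cells with Hoxa7 (C7, C8 and C12) were all among them, which was noticed after the values were seen. The rows of Mira and Hoxa7 do not overlap. Hoxaas3, an antisense RNA listed as 2700086A05Rik whose row overlaps those of Hoxa3, Hoxa5 and Hoxa6, was present in 6 cells, and of these Hoxa3 reached 1 RPKM in 5 and Hoxa5 in 2. Evx1, Evx2 and Hoxa11os did not reach 1 RPKM in any cell. The rows of the short Mir10 and Mir196 precursors in the clusters were all listed at 0. Whether these libraries can capture RNAs that short was not tested, so these values are not read as absence.

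The genes most like Hoxb3, the only Hox gene in at least 40 cells, had modest correlations with it. Over the 67 stromal-like cells the highest Pearson r of log2(RPKM + 1) were 0.52 for Nup54, a nuclear pore gene, 0.43 for Cd1d1, an antigen-presenting molecule, and 0.43 for Ehd4, an endosome gene. These are the top 3 of all genes outside the Hox clusters, and they share libraries and depth with it.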

How the data were processed

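Per the labels' protocols, cDNA of single cells was made with SMARTer chemistry and sequenced as Nextera XT libraries. Per the submitters' processing notes, CASAVA 1.8.2 and the build mm9 were used. Aligner, counting tool, annotation release and strand setting were not given in the sources used here. For each transcript (29510 rows) and cell, 1 value was deposited, with mm9 coordinates. No unit is stated. The values were read as RPKM computed by the authors, since the deposited values times transcript length fall near whole reads. Over cells a median of 79.8% of low values (75.7% to 82.7%) lay within 0.15 of a whole read. These steps gave the estimated reads; those under 500000 mark a shallow cell. Unused columns of values numbered 0.

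Class means use log2(RPKM + 1) of genes detected above 0 in 3 or more cells. From 1000 high-variance genes, without Hox and partner lists, 10 principal components gave 10 Ward clusters. Each cluster was named by the marker list best represented in it, counting markers at 10 RPKM in 50% or more of the cells and requiring 3. The lists were mesenchyme, epithelium, endocrine, leukocyte, endothelium, mesothelium, neural crest, erythroid, smooth muscle, and stomach, gut and spleen mesenchyme. No doublet caller was run on 81 cells. Named cell by cell instead, 62 cells were mesenchyme, 5 epithelium, 2 endocrine, 2 endothelium, 5 leukocyte, 3 smooth muscle, 1 neural and 1 unnamed. No cell took the mesothelial, erythroid or regional mesenchyme name; with 4 mesothelial markers measured, 1 of them under 1 RPKM in every cell, that rule could hardly give the mesothelial name.

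All members enter the counts, and some genes are not reported here. Values are given by cell for members at 1 RPKM in 1 to 5 cells and as a range for the others; up to 4 genes of each pathway list are named by breadth of detection, and 3 by likeness to each Hox gene in at least 40 cells. Other genes and cells were picked once values had been seen. The members, lists and comparisons were chosen with earlier results of these data known. Intervals of a difference of shares combine the exact intervals of both shares. Windows of 50 bases were matched against annotated transcripts. Class differences, a simpler form of the read estimate and the intervals of a difference of shares were tried on simulated data. Clustering and class naming were not simulated. Alternatives cover the threshold, transcript rows, pseudocount, filter, classes and shallow cells. Python 3.11.15, numpy 2.4.6, pandas 2.3.3, scipy 1.17.1 and matplotlib 3.10.9 were used. Without molecular identifiers, reads do not count molecules.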

Additional observations from a re-analysis of the deposited data

How the results depend on the processing

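Shares of cells moved with the detection threshold. At 10 RPKM the median was 1 Hox gene per cell, HoxA was in 49.4% of cells, HoxB in 60.5%, and paralog groups 2 to 7 in 7.41%, 39.5%, 22.2%, 46.9%, 13.6% and 6.17%. Groups 9 and 10 were in 0 cells, anterior genes in 46.9%, central genes in 65.4% and posterior genes in 0. With any value above 0, the median was 5, HoxA was in 90.1% of cells, HoxB in 100%, groups 2 to 5 in 34.6%, 93.8%, 67.9% and 85.2%, and anterior genes in 97.5%. Groups 3 and 5 were above group 4 at each threshold, but group 5 was above group 3 only at 10 RPKM. In the stromal-like cells alone, HoxD and group 8 were in 0 cells. Neighbouring pairs found more often together numbered 2 of the pairs at 10 RPKM and 2 in the stromal-like cells, against 1.

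Hox genes higher by 1 log2 unit in the stromal-like cells, 0 in the reported comparison, numbered 1 with a pseudocount of 0.1, 2 with cells named one by one, 1 without the endocrine-like cells and 1 without C22, C29 and C72. Those higher in the epithelial-like and endocrine-like cells, also 0, numbered 2 with the pseudocount of 0.1, 1 without the shallow cells and 2 without the endocrine-like cells. The cause was not tested. The alternative without C22, C29 and C72 and the regional comparison were chosen after seeing the data. Of the single-gene shares, 170 stayed within the exact 95% interval of the reported share under the alternatives and 25 moved. The 18 genes listed at 0 in all cells could not move under any alternative. They are counted among the 170, so that number overstates how stable the shares are. No paired analysis was possible because the cells form 1 group with no numbered replicates and no test was made.

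Depth limits the shallow cells, where 1 read of a 1 kb transcript is worth 2.41 to 50.4 RPKM. Index sequences equal plate positions here. For the 8 genes with 1 to 6 cells at 10 RPKM, 29 of 39 values above 0 but under 1 RPKM (74.4%) were in a cell sharing an index with a cell at 10 RPKM, against 238 of 556 cells listed at 0 (42.8%) and 15 of 27 values from 1 to 10 RPKM (55.6%). The part of index sharing in the values under 1 RPKM was not tested, and these values are not counted as detection.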
